A study of Sus scrofa with 18 samples.

Results

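Cholesterol synthesis and transport in the fetal pig brain was described through 32 listed genes, chosen by exact gene name in the gene-level count table. Of these, 31 were found among 31908 genes, and all 31 passed the filter on low counts, which kept 16325 genes. They comprise 17 enzymes of cholesterol synthesis, 7 regulators and 7 genes of transport, turnover and storage. The enzyme EBP had no row under that name and was left out of every count of levels and changes.

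Whole brains of untreated pig fetuses were sequenced at gestation day (GD) 45, 60 and 90, with 3 female and 3 male fetuses at each day. The dams were crossbred Landrace and Large White gilts inseminated with semen of the LR-M6 line, and neither dam nor fetus carried a genetic change. By day and litter size in the labels, the 6 fetuses of a day came from 3 litters, each giving 1 female and 1 male, so the fetuses of a day are not all independent. Libraries were made from polyadenylated RNA of the whole organ, and in such bulk tissue a change in the number of cells of a type and a change in RNA per cell cannot be told apart.

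The brain is supplied with very little cholesterol from the blood and makes nearly all of its own. Acetyl-CoA is carried through mevalonate and isoprenoids to squalene, squalene is closed to lanosterol, and lanosterol is trimmed in several steps to cholesterol. The transcription factor encoded by SREBF2 turns on these enzymes when sterols are low, after SCAP has escorted it from the endoplasmic reticulum, and the INSIG proteins hold SCAP back when sterols are high. The liver X receptors, NR1H2 and NR1H3, respond to oxysterols and turn on export genes. In the brain, APOE made largely by astrocytes carries cholesterol between cells, CYP46A1 of neurons turns it into an oxysterol that leaves the brain, and oligodendrocytes use much of it to build myelin.

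Totals per library ranged from 15118843 to 19729783 counts with a median of 16413097, a depth at which single reads weigh little for most members. FDPS (62 to 139 reads per library) and NR1H3 (20 to 45 reads) were the least deeply counted members. Levels are given as CPM, the counts scaled to library size and TMM factors, and as FPKM, which also divides by gene length, where genes are compared with each other. The marker list of neurons summed to between 5900 and 9830 CPM in all libraries. The liver list summed to between 108 and 342 CPM. Of its 4 markers, 1 was at 0, while APOA1 had means of 143.5 to 175.4 CPM by day. Log2 fold changes are those of edgeR. A member was called at an adjusted p (Benjamini-Hochberg over all 16325 genes) under 0.05 in the quasi-likelihood test. The standard error (SE) was worked back from that test, as the absolute log2 change over the square root of its F statistic.

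One library stood apart. Male GD45 fetus 17 held the highest level of all 18 libraries for 9 of 17 enzymes, 2 of 7 regulators and 1 of 7 transport genes, and for 23.2% of all genes. TM7SF2, which reduces a double bond of the sterol ring, reached 173 CPM in this fetus and between 36.3 and 54.4 CPM in the other 5 fetuses of that day. MVD, which makes isopentenyl diphosphate, stood at 386 CPM against 129 to 155 CPM. IDI1, the isomerase that follows it, stood at 447 CPM against 161 to 222 CPM. In the same library HMGCS1 (297 CPM against 330 to 410 CPM), NPC1 and ABCA1 were the lowest of all 18 libraries, so the members did not shift together. The library's TMM factor of 0.849 was the lowest, and the median deviation of GC-rich genes exceeded that of GC-poor genes by 0.567 on the log2 scale, where male GD60 fetus 16 reached 0.375, male GD60 fetus 6 reached 0.346 and the other libraries lay between -0.23 and 0.121. The part of GC content in the levels of this fetus was not tested. The calls over both sexes, and those in each sex and between the sexes' changes from GD60 to GD90, are therefore also given without it.

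**Figure D1:**
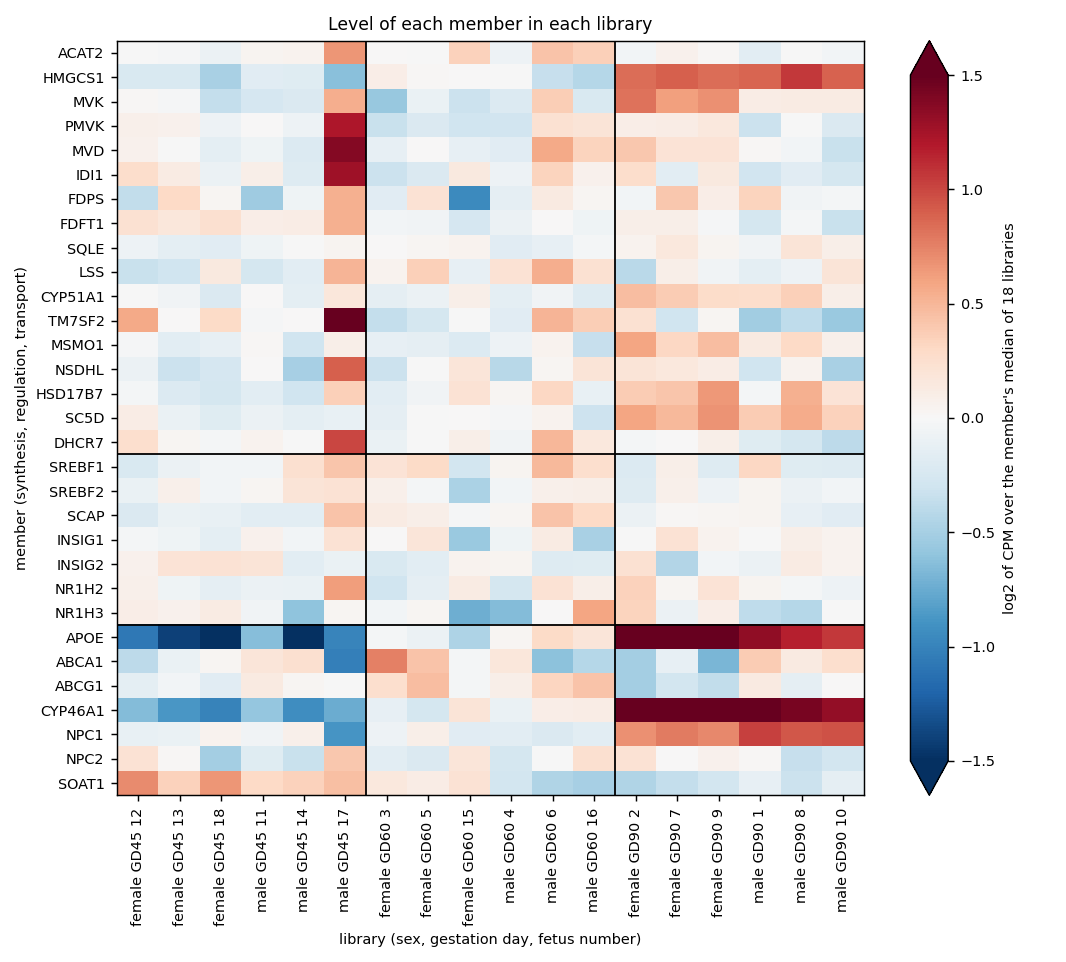
Level of each of the 31 members (rows, by role) in each of the 18 libraries (columns, by day and sex), as log2 of CPM over the member's median, with the color scale ending at 1.5 in either direction. The column of male GD45 fetus 17 is dark red for PMVK, MVD, IDI1 and TM7SF2, and the APOE and CYP46A1 rows run from blue at GD45 to dark red at GD90.

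Per kilobase, the members spanned a wide range. APOE, the lipid carrier, had 59.3 ± 20.9 FPKM at GD45 (SD, n = 6), 141 ± 24.1 FPKM at GD60 and 405 ± 105 FPKM at GD90, when it was the most abundant member. HMGCS1, which makes the precursor of mevalonate, had 67.0 ± 8.42, 77.6 ± 11.2 and 155 ± 9.50 FPKM at the same days. IDI1 was the most abundant member at GD45 with 140 ± 64.2 FPKM, where fetus 17 widened the spread, and had 106 ± 17.2 FPKM at GD90. SREBF2 stayed between 69.1 and 74.7 FPKM on average, far above its relative SREBF1, which favors fatty acid genes and averaged 13.97 to 16.4 FPKM. At the low end stood ABCA1 (2.62 to 3.11 FPKM), SOAT1 (1.43 to 2.41 FPKM), FDPS (0.922 to 1.09 FPKM) and NR1H3 (0.209 to 0.213 FPKM). The exonic bases of FDPS were shared to 81.2% with RUSC1 on the same strand and those of NR1H3 to 86.5% with MADD, so their levels are uncertain, as is that of TM7SF2, which shared 74.0% with CAPN1. Whether the counting used the strand is not stated in the sources used here, and overlaps on the opposite strand touched FDFT1 (42.0%, with CTSB), ACAT2 (31.4%, with TCP1) and SREBF1 (24.6%, with RAI1), while SC5D shared 21.7% with unnamed genes on either strand.

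Summed by role, the transport genes had the largest relative rise in both periods. The 7 transport genes together had 323, 415 and 534 CPM at GD45 (lowest, median and highest of 6 fetuses), 607, 735 and 842 CPM at GD60, and 1386, 1757 and 2434 CPM at GD90, and the days did not overlap. APOE held a median of 51% of this sum at GD45 and 78.1% at GD90, and without it the medians were 199.9, 247 and 379 CPM. The 17 enzymes summed to medians of 2073, 2166 and 2769 CPM at the 3 days, with 3146 CPM in fetus 17. HMGCS1 held 18.7%, 21.1% and 32.3% of the enzyme sum, and the other 16 enzymes together had medians of 1681, 1729 and 1865 CPM. The 7 regulators summed to medians of 931, 963 and 898 CPM, with the days overlapping.

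From GD45 to GD60 the members were called about as often as genes at large. Over the mean of both sexes, 5 of 31 members were called, 3 higher and 2 lower, where 16.7% of all 16325 genes were called (9.35% higher and 7.37% lower). Of the 5, 4 belong to transport and 1 to synthesis, and no regulator was called. The median log2 change was -0.06 over the enzymes, -0.10 over the regulators and 0.20 over the transport genes, beside -0.01 over all genes.

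APOE had 123.2, 212 and 319 CPM at GD45 and 361, 498 and 606 CPM at GD60 (lowest, median and highest of 6), and the days did not overlap. It rose by a log2 fold change of 1.25 (SE 0.18, adjusted p = 0.000189, edgeR). CYP46A1, the cholesterol 24-hydroxylase, stood between 33.0 and 44.2 CPM at GD45 and between 55.1 and 75.7 CPM at GD60, again without overlap, a log2 change of 0.78 (SE 0.10, adjusted p = 5.01e-05, edgeR). In females 2 members were called (7.22% of all genes) and in males 3 (5.61%), and APOE and CYP46A1 were the members called in each sex in the same direction (3.98% of all genes). SOAT1, which esterifies cholesterol for storage, fell from 10.2, 11.0 and 13.6 CPM to 5.89, 7.95 and 9.71 CPM, a log2 change of -0.59 (SE 0.10, adjusted p = 0.000704, edgeR). At GD60 its 3 males, between 5.89 and 6.86 CPM, all lay below the 3 females, between 9.03 and 9.71 CPM. SOAT1 was not called between the sexes. At that day the male was lower than its litter-mate in every litter for 2 of 17 enzymes, 0 of 7 regulators and 2 of 7 transport genes. This held for 18.4% of all genes. The male was higher in every litter for 5 of 17, 0 of 7 and 1 of 7, beside 18.8% of all genes. Without overlap between the days, 2 members were higher and 2 lower, beside 4.62% and 3.84% of all genes.

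FDFT1, squalene synthase and the first enzyme committed to sterols, was the 1 enzyme called. It fell from 191, 206 and 259 CPM to 150, 172 and 180 CPM, a log2 change of -0.32 (SE 0.09, adjusted p = 0.0181, edgeR), and the days did not overlap. The calls of SOAT1 and FDFT1 were lost with exon counts summed per gene, and that of FDFT1 also with counts summed per litter. ABCG1, a cholesterol exporter, had 53.4, 59.2 and 66.0 CPM at GD45 and 58.7, 73.5 and 82.5 CPM at GD60, overlapping, with a log2 change of 0.29 (SE 0.09, adjusted p = 0.0402, edgeR). Its call was lost in 18 of 29 alternative analyses. Without male GD45 fetus 17, 6 members were called against 20.3% of 16631 genes. ABCG1 (adjusted p = 0.0576, edgeR) was then not called, and LSS (0.39, SE 0.12) and SCAP (0.30, SE 0.08) were called higher.

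**Figure D2:**
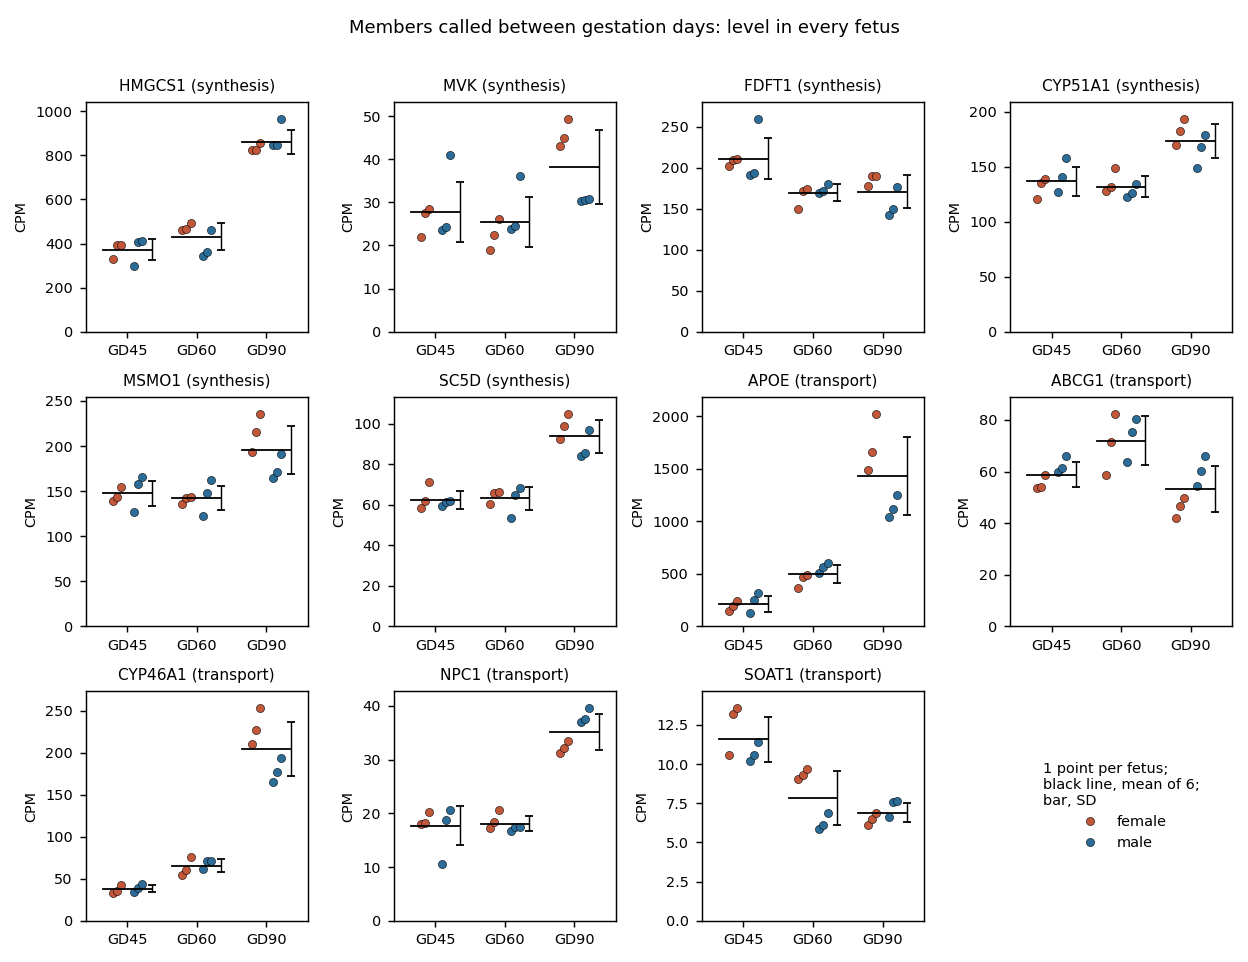
CPM of the 11 members called in either period (y axis, from 0) in every fetus at GD45, GD60 and GD90, females in red and males in blue, with the mean (line) and SD (bar) of 6 fetuses. APOE and CYP46A1 step up at each day, HMGCS1, SC5D and NPC1 step up from GD60 to GD90, and MVK at GD90 splits into 3 females between 43.0 and 49.3 CPM and 3 males between 30.4 and 30.7 CPM.

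Between GD60 and GD90, enzymes of the mevalonate arm and of the steps after lanosterol were among the members that rose, and no regulator was called. Over the mean of both sexes, 9 of 31 members were called, 8 higher and 1 lower, where 42.4% of all genes were called (21.4% higher and 20.9% lower). The higher calls, 8 of 31, lay near the background share, so their count alone does not set the members apart. All calls (9 of 31 beside 42.4%) and lower calls (1 of 31 beside 20.9%) lay below the background shares, and these differences were not tested. Of the 9, 5 were enzymes and 4 transport genes. The median log2 change was 0.09 over the enzymes, 0.01 over the regulators and -0.02 over the transport genes, beside -0.01 over all genes.

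In the mevalonate arm, which runs from acetyl-CoA to farnesyl diphosphate, 2 of 7 enzymes were called. HMGCS1 had 343, 461 and 492 CPM at GD60 and 824, 847 and 965 CPM at GD90, without overlap (log2 change 1.01, SE 0.10, adjusted p = 5.53e-07, edgeR). MVK, mevalonate kinase, had 19.0, 24.2 and 36.1 CPM and then 30.4, 36.8 and 49.3 CPM, with an overlap made by male GD60 fetus 6 (log2 change 0.57, SE 0.15, adjusted p = 0.00464, edgeR). The other 5 were not called, with log2 changes from -0.22 (SE 0.12) for ACAT2, the first thiolase of the arm, to 0.24 (SE 0.21) for FDPS.

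None of the 3 enzymes from farnesyl diphosphate to lanosterol was called. SQLE, squalene epoxidase and a known slow step, was among the steadiest members, with 165 to 193 CPM at GD60 and 178 to 211 CPM at GD90 (log2 change 0.12, SE 0.06, adjusted p = 0.15, edgeR). FDFT1 (0.01, SE 0.09) and LSS (-0.28, SE 0.14), which closes the ring, were not called either.

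After lanosterol, 3 of 7 enzymes were called, all higher and without overlap between the days. CYP51A1, which removes a methyl group of lanosterol, had 122.5, 129.7 and 148.4 CPM at GD60 and 148.5, 174.3 and 193.1 CPM at GD90 (log2 change 0.40, SE 0.08, adjusted p = 0.000766, edgeR). MSMO1, the next oxidase, had 122.8, 143 and 162 CPM and then 164, 192 and 236 CPM (0.45, SE 0.09, adjusted p = 0.00067, edgeR). SC5D, the desaturase near the end of the route, had 53.3, 65.5 and 68.4 CPM and then 84.1, 94.8 and 105 CPM (0.57, SE 0.08, adjusted p = 3.46e-05, edgeR). HSD17B7, a sterol ketoreductase, fell just outside the threshold (0.32, SE 0.13, adjusted p = 0.0529, edgeR) and was called in 13 of 29 alternatives. DHCR7, which makes cholesterol itself in the last step, was not called (-0.24, SE 0.15), nor were TM7SF2 (-0.27, SE 0.30) and NSDHL (0.01, SE 0.18). Non-overlap of the days, higher, held for 7 of 31 members, 4 of them enzymes, and 12.9% of all genes, and non-overlap, lower, for no member and 11.2%.

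The promoters of the enzymes were read to show what these members share in sequence. Windows of 250 bases before the RefSeq start were taken from Sscrofa11.1 for 15 enzymes (EBP among them), 7 regulators and 6 transport genes, matched by symbol. The sterol response element TCACNCCAC, the site through which SREBF2 is known to act, was searched on both strands and found in 2 of 15 enzymes, HMGCS1 among them, in 1 regulator, SREBF2 itself, in no transport gene and in 0.771% of 20612 promoters. The CCAAT box, bound by a factor that often acts beside it, was found in 13 of 15 enzymes, 2 of 7 regulators, 2 of 6 transport genes and 6586 of all 20612 promoters. GGGCGG was found in 13 of 15 enzymes and 44.5% of all promoters, and CACGTG in 2 of 15 and 6.17%. With the starts of the Ensembl annotation the CCAAT box was in 14 of 17 enzymes, 3 of 7 regulators and 6 of 7 transport genes, so its share in transport genes depends on the annotation. The windows of HMGCS1 and SREBF2 are printed to show the element in an enzyme and in its regulator, 5′ to 3′, with the element and each CCAAT box (either strand) in capitals, and in neither did these overlap. They lie on the minus strand at chr16:27957262-27957511 (HMGCS1) and chr5:6784725-6784974 (SREBF2), with the element beginning 181 and 93 bases before the start.
HMGCS1: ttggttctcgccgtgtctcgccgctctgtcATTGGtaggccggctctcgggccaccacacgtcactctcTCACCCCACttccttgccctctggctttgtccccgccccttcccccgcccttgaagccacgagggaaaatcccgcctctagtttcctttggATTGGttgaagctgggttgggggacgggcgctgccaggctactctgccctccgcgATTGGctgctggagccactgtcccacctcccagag
SREBF2: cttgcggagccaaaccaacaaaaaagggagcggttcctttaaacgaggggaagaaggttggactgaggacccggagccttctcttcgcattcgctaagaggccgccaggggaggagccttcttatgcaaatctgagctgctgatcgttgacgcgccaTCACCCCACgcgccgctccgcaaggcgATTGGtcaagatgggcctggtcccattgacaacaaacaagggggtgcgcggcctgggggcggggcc

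The genes of these windows did not move alike. From GD60 to GD90 the log2 change was 1.01 (SE 0.10) for HMGCS1 and -0.0040 (SE 0.09) for SREBF2. A match of letters is not a measured site, and binding was not measured.

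No regulator was called in either period. SREBF2 had 487, 542 and 607 CPM at GD45, 376, 531 and 554 CPM at GD60, and 457, 501 and 551 CPM at GD90. The low value at GD60 was that of female fetus 15. INSIG1, itself a known target of the sterol pathway, was also lowest in that fetus at 62.1 CPM, against up to 103.5 CPM at the same day. SREBF1, NR1H3 and the enzyme FDPS were lowest of all 18 libraries in that fetus too. Its mitochondrial share, 3.72%, was the highest of the libraries, and the part of library differences in these levels was not tested. INSIG1 had a log2 change of 0.18 (SE 0.12) to GD90. SCAP had -0.21 (SE 0.10, adjusted p = 0.108, edgeR) and was called lower in 4 of 29 alternatives, and in the earlier period it was called higher in 1, without male GD45 fetus 17. SREBF1 had -0.23 (SE 0.13). NR1H2 (0.12, SE 0.13) and NR1H3 (0.01, SE 0.23), the liver X receptors, and INSIG2 (0.09, SE 0.12) were not called. The SEs of 0.09 to 0.23 leave room for moderate changes in any of the 7.

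Among the transport genes, 3 rose and 1 fell from GD60 to GD90. CYP46A1 had 55.1, 66.0 and 75.7 CPM at GD60 and 165, 202 and 253 CPM at GD90, the largest change of any member (log2 1.63, SE 0.10, adjusted p = 3.79e-09, edgeR). APOE had 361, 498 and 606 CPM and then 1041, 1372 and 2025 CPM (1.50, SE 0.19, adjusted p = 7.19e-06, edgeR). NPC1, which moves cholesterol out of the lysosome, had 16.8, 17.5 and 20.7 CPM and then 31.3, 35.2 and 39.6 CPM (0.96, SE 0.12, adjusted p = 1.08e-05, edgeR). In each of the 3 genes every GD90 fetus lay above every GD60 fetus. NPC2, the partner that hands cholesterol to NPC1, stayed at medians of 45.4 and 48.4 CPM (-0.02, SE 0.15). ABCG1 fell from 58.7, 73.5 and 82.5 CPM to 42.1, 52.2 and 65.9 CPM, with overlap (-0.45, SE 0.09, adjusted p = 0.000977, edgeR), a call lost with exon counts, while ABCA1, which loads APOE with lipid, and SOAT1 were not called (-0.16, SE 0.20 and -0.15, SE 0.10).

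**Figure D3:**
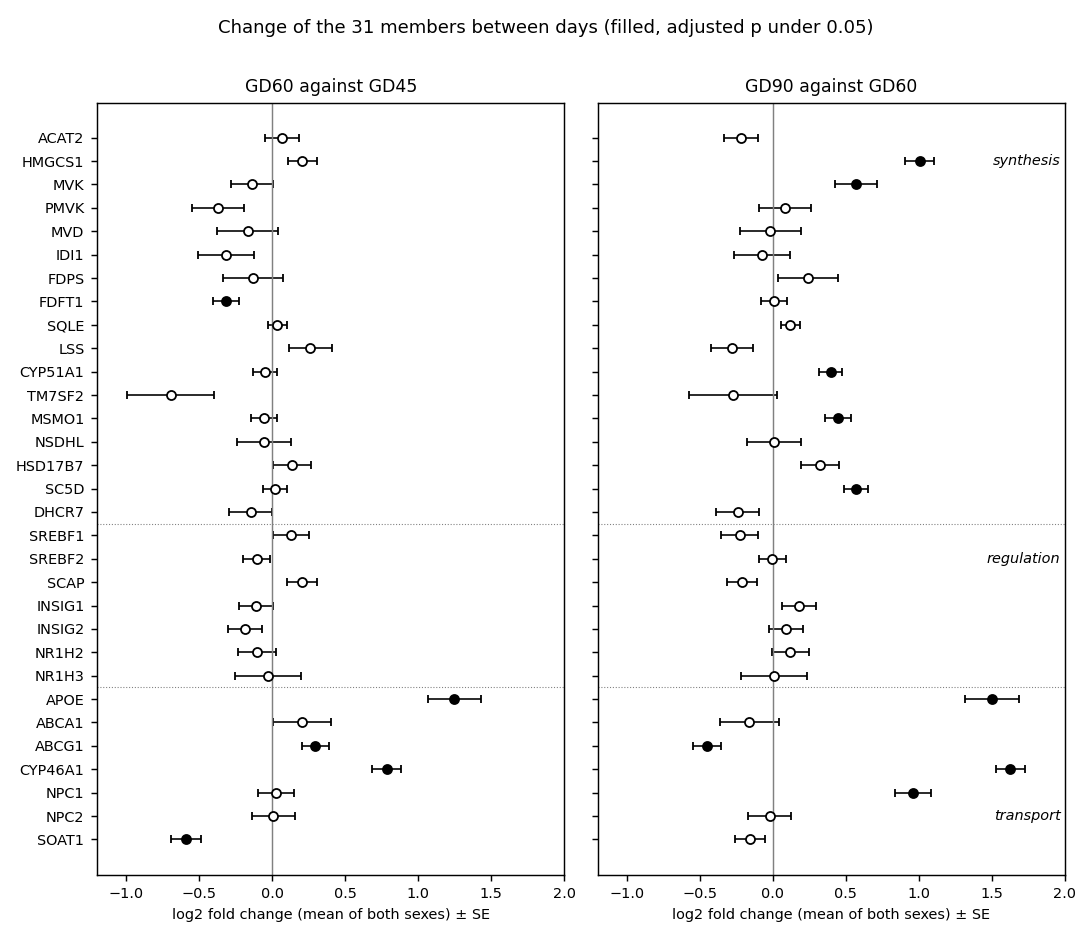
Log2 fold change (x axis, mean of both sexes) with SE for each of the 31 members (y axis, by role) in each period, with filled points for an adjusted p under 0.05. In the later period HMGCS1, MVK, CYP51A1, MSMO1 and SC5D are filled to the right of 0 among the enzymes, and the 7 regulators are open and lie between -0.23 and 0.18.

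Markers of other cell types moved in the same period. The oligodendrocyte list was called higher in 6 of 6 tested markers, with a summed level of 94 to 121 CPM at GD60 and 1940 to 3300 CPM at GD90. Of the astrocyte markers 5 of 5 were higher (459 to 591 CPM, then 1610 to 2060 CPM), of the oligodendrocyte precursor markers 4 of 4 (249 to 287 CPM, then 444 to 604 CPM), and of the microglia markers 6 of 6 (90 to 133 CPM, then 151 to 233 CPM). The neuron list had 3 of 6 higher and 1 lower, the neural progenitor list 4 of 5 lower, and the list of dividing cells 3 of 3 lower. Among the liver markers, none of the 3 tested was called in either period in edgeR's test. The part of cell makeup in the changes of APOE, CYP46A1, HMGCS1, NPC1 and the other enzymes was not tested. In the earlier period, when APOE and CYP46A1 also rose, the oligodendrocyte sum went from 69 to 88.8 CPM up to the GD60 range above, with 3 of 6 markers higher. In that period 2 of 5 astrocyte, 4 of 4 oligodendrocyte precursor and 3 of 6 neuron markers were higher, and 5 of 5 neural progenitor markers and 3 of 3 markers of dividing cells were lower. Their part in the changes of APOE and CYP46A1 was not tested.

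The change from GD60 to GD90 was also fitted in females and in males. In females, 11 members were called from GD60 to GD90 (27.1% of all genes), 8 higher and 3 lower (13.7% and 13.4%), and in males 6 members (34.5% of all genes), all higher (18.5%). HMGCS1, CYP51A1, SC5D, APOE, CYP46A1 and NPC1 were higher in each sex, 6 of 31 members beside 16.2% of all genes called in both sexes. MVK (log2 1.02, SE 0.21) and MSMO1 (0.61, SE 0.13) were called in females, with 0.12 (SE 0.21) and 0.28 (SE 0.13) in males. ABCA1 (-0.84, SE 0.29), ABCG1 (-0.62, SE 0.13) and SOAT1 (-0.52, SE 0.15) were lower in females, with 0.51 (SE 0.29), -0.28 (SE 0.13) and 0.22 (SE 0.15) in males. Among the enzymes, 15 of 17 had a change above 0 in females and 8 of 17 in males, with medians of 0.35 and -0.16, beside -0.02 and 0.01 over all genes.

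The difference between the sexes in this change was tested directly. With all 18 libraries the interaction called 0 of 31 members and 0% of all genes in edgeR's test, while 5 members and 3232 genes (19.8%) had an unadjusted p under 0.05. DESeq2 also called 0 members, and in the earlier period the interaction called 0 members and 0% of genes, with 0 members and 2.04% of genes at an unadjusted p under 0.05. Without male GD45 fetus 17, a library of neither day, 6 of 31 members were called, where 13.3% of 16631 genes were called. The estimates hardly moved, since MVK had -0.91 with a SE of 0.29 in all libraries and -0.91 with a SE of 0.22 without that fetus. Then the male change minus the female change was below 0 in edgeR's test for MVK (adjusted p = 0.0215), PMVK (-0.65, adjusted p = 0.0325), MVD (-0.75, adjusted p = 0.03) and TM7SF2 (-0.97, adjusted p = 0.025), and above 0 for ABCA1 (1.34, adjusted p = 0.0205) and SOAT1 (0.73, adjusted p = 0.0327). For PMVK, MVD, TM7SF2, ABCA1 and SOAT1 the estimates of the sexes had opposite signs, and for MVK the female estimate was 1.03 and the male one 0.12. ABCA1 was the clearest case by level, since its 3 females fell from between 29.2 and 50.1 CPM to between 18.5 and 27.4 CPM, while its 3 males had 19.4, 22.1 and 33.4 CPM at GD60 and 32.6, 35.3 and 38.8 CPM at GD90. The GD60 values of the males rested partly on fetuses 6 and 16, whose ABCA1 was low and whose GC-rich genes stood high as given above. With the trend on GC content removed from every library, the ABCA1 interaction was 1.17 (SE 0.35) and that of SOAT1 0.47 (SE 0.22). The males at GD60 had 133, 187 and 220 CPM for MVD and 32.7, 47.6 and 52.4 CPM for TM7SF2. They had 21.6, 30.3 and 31.1 CPM for PMVK and 23.9, 24.5 and 36.1 CPM for MVK. That fit with the GC trend removed, over all 18 libraries, called 0 of 16325 genes in this interaction. Its estimates for these enzymes are not given here, and the part of GC content in their interactions was not tested.

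The same fetus bears on the calls in each sex. Without it, 13 members were called in females (35.9% of 16631 genes) and 12 in males (44.3%), 6 higher (22.5%) and 6 lower (21.8%). In males ACAT2, MVD, IDI1, TM7SF2, DHCR7 and SCAP were then lower, with log2 changes of -0.32, -0.39, -0.36, -0.75, -0.50 and -0.34, which were the same at 2 decimals with all libraries. The SE fell for TM7SF2 from 0.43 to 0.18 and for DHCR7 from 0.21 to 0.12. These male changes start from GD60 males of which fetuses 6 and 16 had high GC-rich genes, as given above. The GD60 males had 121, 164 and 172 CPM for ACAT2, 82.5, 95.2 and 120.5 CPM for DHCR7, and 187, 226 and 247 CPM for SCAP. For IDI1 they had 175, 194 and 233 CPM, and MVD and TM7SF2 are given above. The male changes were also fitted with the trend on GC content removed, and those estimates are not given here. The part of GC content in these changes was not tested. In females PMVK and HSD17B7 were added, both higher. Over the mean of both sexes 13 members were called (49.5% of genes), with HSD17B7 higher and ACAT2, DHCR7 and SCAP lower beside the 9 above.

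**Figure D4:**
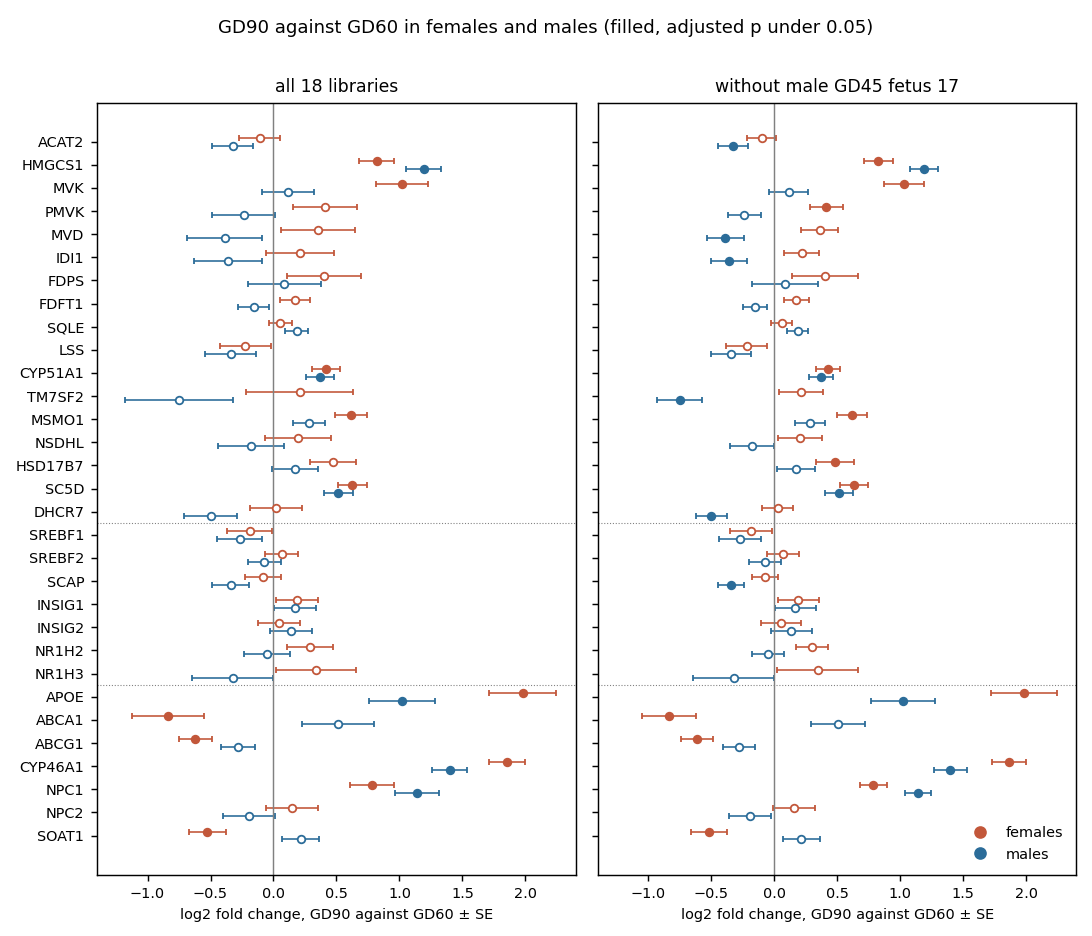
Log2 fold change from GD60 to GD90 (x axis) with SE for each member (y axis) in females (red) and males (blue), with filled points for an adjusted p under 0.05, in all 18 libraries (left) and without male GD45 fetus 17 (right). The points sit at nearly the same places in both panels and the bars are shorter on the right, where 13 members are filled in females and 12 in males.

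At GD90 most enzymes had lower levels in males than in females, and none was called. No member was called between the sexes at GD45, GD60 or GD90, where 0.0919%, 0.098% and 0.098% of all genes were, and 0, 2 and 6 members had an unadjusted p under 0.05 in edgeR's test, beside 2.59%, 4.8% and 13.6% of all genes. DESeq2 called 0 members at each day as well. At GD90, 15 of 17 enzymes had a log2 difference of male minus female below 0, with a median of -0.26, beside 48.8% of all genes and a median of 0.01. For 9 of 17 enzymes, MVK, PMVK, MVD, IDI1, FDFT1, TM7SF2, MSMO1, NSDHL and DHCR7, all 3 males lay below all 3 females, where this held for 18% of all genes. Other measures also separated the sexes at GD90. GC-rich minus GC-poor genes stood between 0.0377 and 0.121 in females and between -0.193 and -0.00553 in males, and short genes stood lower in every male. Neuron markers summed to 8470 to 9590 CPM in females and 7790 to 8320 CPM in males, oligodendrocyte precursor markers to 580 to 604 CPM in females and less in every male, from 444 CPM up, liver markers to 152 to 259 CPM in females and 124 to 137 CPM in males, and those of dividing cells to 43.6 to 45.2 CPM in females and 45.5 to 57.9 CPM in males. The parts of cell makeup, GC content and gene length in the enzymes' levels were not tested. With the trend on GC content removed, the MVK difference was -0.56 (SE 0.19). This value covers MVK alone, and those of the other enzymes are not given here.

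Among the enzymes, MVK was the widest apart, with 30.4, 30.6 and 30.7 CPM in males and 43.0, 45.0 and 49.3 CPM in females (log2 -0.58, SE 0.21, unadjusted p = 0.0114, adjusted p = 0.35, edgeR). MVD had 118, 144 and 151 CPM in males and 171, 171 and 197 CPM in females. HMGCS1 (0.09, SE 0.14) and SQLE (-0.0056, SE 0.09) overlapped. Of the transport genes, APOE (1041, 1118 and 1254 CPM in males, 1491, 1657 and 2025 CPM in females) and CYP46A1 were lower in all males, and ABCA1, ABCG1 and NPC1 were higher in all males, where 17.8% of all genes were. Compared with the female litter-mate, the male was lower in every one of 3 litters for 11 of 17 enzymes at GD90, for 2 at GD60 and for 0 at GD45, beside 27.8%, 18.4% and 8.6% of all genes. At GD60 the median over the enzymes was 0.13, and at GD45 0.18 with fetus 17 and -0.07 without it.

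Other genes of sterol and lipid handling were read beside the members, as a list of 43 of which 41 were found and 38 tested. From GD60 to GD90, 12 were higher and 7 lower, with a median of 0.12, where 21.4% and 20.9% of all genes were. The genes of lipoprotein receptors and handling were called higher in 7 of 9 tested and lower in 0. Those that rose most were APOD, an apolipoprotein (log2 1.80, SE 0.21, from a mean of 9.02 to 31.7 CPM), ME1, which supplies NADPH (1.45, SE 0.16), SCD, which makes monounsaturated fatty acids (1.04, SE 0.12, from 222 to 457 CPM), and CLU, another apolipoprotein (1.00, SE 0.14, from 829.2 to 1667 CPM). Those that fell most were DHDDS (-0.97, SE 0.30) and PDSS1 (-0.92, SE 0.13), which lengthen isoprenoid chains toward dolichol and ubiquinone, LBR, a nuclear membrane protein that can also reduce sterols (-0.84, SE 0.08, from 40.0 to 22.3 CPM), and STARD3, a lipid transfer protein (-0.80, SE 0.29). The 9 genes of mevalonate branches had 0 higher and 2 lower. From GD45 to GD60, 6 of the 38 were higher and 2 lower, with a median of 0.02, where 9.35% and 7.37% of all genes were.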

How the data were processed

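Polyadenylated RNA of whole fetal brains was sequenced. The authors used Trimmomatic for quality trimming, HISAT2 for alignment to Sscrofa11.1 and featureCounts with Ensembl gene models, and deposited raw counts per gene and per exon, without normalization. Options for strand and for reads with several matches are not given in the sources used here. The gene length in the deposited table was used for FPKM, and a transcript-level table was not used here. Among the 22 columns, 4 libraries appear as a pair of runs. Runs of a pair were close (chi-square over degrees of freedom 1.61 to 1.68, with 6.76 or more between replicates), and their counts were added, leaving 18 libraries.

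The fit used edgeR 4.0.16 (R 4.3.3) over all 18 libraries, after filterByExpr (16325 genes with 99.9% of the counts) and TMM scaling, with a mean for each of 6 sex and day groups, quasi-likelihood tests and Benjamini-Hochberg adjustment. The study ran edgeR on paired samples. Here litters entered as a block in an alternative only, because the labels name no pairs. p-values measure the spread between these fetuses, and litter-mates share a dam. Members, roles and lists were chosen with earlier results of these data known. Full values are given for members called in either comparison of days over both sexes, and of the other lipid genes for the 4 that rose and the 4 that fell most among those called. Genes named between the sexes and in the fit without male GD45 fetus 17 were chosen after their values were seen. Promoters were read from the RefSeq annotation of Sscrofa11.1, and exonic overlaps from the exon coordinates of the deposited table. Promoter sequences are shown for HMGCS1 and SREBF2, and the others are not reported here. Alternatives were the likelihood ratio test, DESeq2 1.42.0, no TMM factors, trends on gene length or GC content removed (GC chosen after seeing the data), genes above 1 CPM in 3 or more libraries, no filter, exon counts summed per gene, fits of the compared libraries alone, sums per litter, litter as a block (limma 3.58.1 for the random block) and each library left out. The steps were also run on simulated counts for GD90 against GD60. These were drawn independently for each library, without litters, an outlying library or a GC trend, so the run cannot speak to those features.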

Additional observations from a re-analysis of the deposited data

Results flagged for a closer look

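For each member and day, the fetus at either end of the 6 was compared with its neighbor by Dixon's ratio, the gap over the whole range, with a limit of 0.625. Of 93 groups, 17 passed, where chance alone passes about 1 group in 20, and 13 of the 17 were set by male GD45 fetus 17, so they are not independent.

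In that fetus 12 members were far above the other 5. The ratios were 0.925 for PMVK (61.5 CPM, next 27.8), 0.898 for MVD (386, next 155), 0.868 for TM7SF2 (173, next 54.4), 0.858 for SCAP (247, next 171), 0.85 for ACAT2 (202, next 132), 0.789 for DHCR7 (170, next 102) and 0.787 for IDI1 (447, next 222). They were 0.766 for NR1H2 (78.1, next 53.5), 0.741 for NSDHL (84.3, next 45.5), 0.708 for FDFT1 (259, next 211), 0.651 for MVK (40.9, next 28.5) and 0.64 for HSD17B7 (40.5, next 31). NPC1 was far below them, with a ratio of 0.744 (10.6 CPM, next 18.0). Short genes stood 0.401 above and long genes 0.259 below the mean of all libraries at the median on the log2 scale in this library, and its summed markers were the highest of the GD45 libraries for neurons (8580 CPM), choroid plexus (1780 CPM), neural progenitors (1720 CPM), endothelium (435 CPM), liver (342 CPM), microglia (124 CPM) and erythroid cells (48.9 CPM) and the lowest for fibroblasts and meninges (632 CPM), astrocytes (220 CPM) and dividing cells (154 CPM). The part of any of these in the levels was not tested.

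The other 4 came from different fetuses. HMGCS1 at GD90 was highest in male 8 (ratio 0.77, 965 CPM, next 856). SC5D at GD45 was highest in female 12 (0.713, 71.4 CPM, next 62.1). SREBF2 at GD60 was lowest in female 15 (0.738, 376 CPM, next 507), and NR1H3 at GD45 was lowest in male 14 (0.724, 1.25 CPM, next 1.84).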

How the results depend on the processing

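Over the mean of both sexes, no called change turned its direction in any alternative. Directions within each sex and in the interactions were not checked in this way. The count of members called from GD45 to GD60 went from 5 to 2 with exon counts summed per gene, where 1703 of 15661 genes were called. It went to 3 with counts summed per litter (without ABCG1 and FDFT1). In females 2 became 1 with exon counts (537 of 15661 genes called), and in males 3 became 1 (400 of 15661 genes). With the compared libraries alone, 0 members were called in males in that period, where 0 of 15283 genes were called. From GD60 to GD90 the count over both sexes was 9 and ran from 9 to 13. It was 12 without TMM factors (6914 of 16325 genes called) and 13 with the compared libraries alone (7821 of 16027 genes). In males 6 became 10 with the trend on gene length removed (5910 of 16325 genes called) and 12 with the compared libraries alone (7353 of 15512 genes). With the compared libraries alone, 3 members were called between the sexes at GD90 (ABCA1 higher, APOE and MVK lower), beside 1062 of 15427 genes. In the interaction of the later period 4 were called (ABCA1 higher, APOE, MVK and TM7SF2 lower), beside 1145 of 16027 genes. The cause was not tested.

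With each library left out in turn, counts ran from 4 to 6 and from 9 to 13 over both sexes, from 1 to 3 and from 8 to 13 in females, and from 3 to 4 and from 5 to 12 in males, stayed at 0 between the sexes, and ran from 0 to 6 in the later interaction, where that 6, both 13s and the 12 came without male GD45 fetus 17. In females from GD45 to GD60, 1 was called without female GD45 fetus 18 and 3 without female GD60 fetus 15 or without male GD45 fetus 17. In females from GD60 to GD90, 8 were called without female GD90 fetus 2, beside 3175 of 16593 genes. In males, 5 were called without male GD90 fetus 1 or 8 or male GD60 fetus 16. Without male GD90 fetus 1, 4529 of 16589 genes were called in males. Litters were read from day and litter size. With the litter as a replicate block, 4 members were called from GD45 to GD60 and 9 from GD60 to GD90 (litter correlation 0.104), and 0 between the sexes and in the interactions, so in these comparisons the block changed no call other than that of ABCG1 in the earlier period, and it was not run for the changes within each sex. Depth limited FDPS and NR1H3 most. Intervals and SEs here take reads without molecular identifiers as they were counted.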

Other observations

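A row with no gene name in the table is paired with EBP, the sterol isomerase, by identifier. It had 40.1, 45.4 and 81.4 CPM at GD45 (lowest, median and highest of 6), 35.6, 39.7 and 45.6 CPM at GD60, and 32.5, 40.6 and 54.3 CPM at GD90, the highest GD45 value being that of male fetus 17. It was not called from GD45 to GD60 (log2 -0.34, SE 0.15, adjusted p = 0.122, edgeR) or from GD60 to GD90 (0.02, SE 0.15). At GD90 all 3 males lay below all 3 females (log2 -0.44, SE 0.21, adjusted p = 0.368, edgeR).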
